A study of Homo sapiens with 36 samples.

Results

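ATF4 is the transcription factor through which cells answer amino acid shortage, unfolded protein in the endoplasmic reticulum (ER), heme lack and viral RNA. It was followed here with 9 of its known targets and partners in leukemia cells that had lost LMO2, TAL1 or LDB1. The 10 genes were taken by symbol: ATF4, DDIT3, TRIB3, ASNS, CHAC1, SESN2, DDIT4, NUPR1, VLDLR and ATF5. All 10 stand among the 60642 rows of the table for K562 cells with an LMO2 degron and among the 57820 rows of the HEL table. Of the 13707 rows of the LDB1 table, 9 are theirs, since VLDLR is not among the rows used here.

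The series asks which transcripts depend on the complex of LMO2, LDB1 and TAL1, and it holds 36 libraries of polyA RNA. K562 is an established erythroleukemic line from chronic myeloid leukemia in blast crisis. The degron set holds 24 K562 libraries. They come from parental cells, from a line named LMO2 control and from 2 LMO2 degron entries, whose rep numbers are taken as degron lines 1 and 2. Each of these 4 lines was taken on day 0 with no dTAGv1 and on days 1 and 4 with dTAGv1, at 750 uM as the labels write it, with 2 libraries (bio rep 1 and 2) per line and day. dTAGv1 directs a protein that carries the degron tag to the proteasome. Parental and LMO2 control cells got the same agent, and together they are called the control lines. The sources used here do not give what the LMO2 control line carries, or whether a line is 1 clone. HEL is an established erythroleukemia line, which was electroporated with a non-targeting siRNA pool, TAL1 siPool 1 or TAL1 siPool 2, with 3 libraries (bio rep 1 to 3) each. The LDB1 set adds 3 K562 libraries: 1 got a control shRNA, 1 got LDB1 shRNA 1 and 1 got LDB1 shRNA 2. The labels do not say what a bio rep shares, so p-values measure the spread between these libraries only.

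In the integrated stress response, kinases that sense these stresses phosphorylate the initiation factor eIF2. General translation then falls, while upstream reading frames in the ATF4 message let more ATF4 protein be made. RNA levels therefore show only part of ATF4 activity, and its targets are the usual readout. In erythroid cells the heme-sensing kinase of this pathway matches globin synthesis to heme supply. The genes fall into 4 roles. The transcription factors are ATF4 itself (ENSG00000128272.10, chromosome 22), DDIT3 (ENSG00000175197.6, chromosome 12), which encodes the pro-apoptotic factor CHOP, and ATF5 (ENSG00000169136.4, chromosome 19), a relative of ATF4 tied to the mitochondrial stress response. Amino acid and redox targets are ASNS (ENSG00000070669.12, chromosome 7), the asparagine synthetase, and CHAC1 (ENSG00000128965.7, chromosome 15), which degrades glutathione. Restraint of growth signalling falls to TRIB3 (ENSG00000101255.6, chromosome 20), a pseudokinase that binds AKT and feeds back on ATF4, and to SESN2 (ENSG00000130766.4, chromosome 1) and DDIT4 (ENSG00000168209.4, chromosome 10), both inhibitors of mTORC1. NUPR1 (ENSG00000176046.7, chromosome 16) is a small stress-induced chromatin protein, and VLDLR (ENSG00000147852.11, chromosome 9) is a lipoprotein receptor that the pathway induces.

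ATF4 pairs with CEBP proteins on a composite element whose core can be written TGATGNAA. RefSeq promoter windows (GRCh38.p14, from 250 bases before to 50 after an annotated start) were at hand for 9 of the 10 genes, all but NUPR1. On either strand, the 8 letters stood in windows of 2 of these 9, ASNS and CHAC1, and in 4.46% of 27305 genes with a window. They are shown because RNA of these genes moved together across the K562 libraries, and beside them stand the windows of AARS1 and CARS1, the tRNA synthetase genes whose pattern was among the 3 most like theirs. Each line runs 5′ to 3′ on the gene's strand, and capitals mark the match.
ASNS: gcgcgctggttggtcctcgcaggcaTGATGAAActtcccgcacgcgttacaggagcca
CHAC1: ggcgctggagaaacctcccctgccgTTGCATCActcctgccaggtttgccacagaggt
AARS1: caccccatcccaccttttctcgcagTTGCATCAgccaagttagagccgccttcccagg
CARS1: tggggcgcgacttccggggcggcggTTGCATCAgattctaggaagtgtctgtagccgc
The ASNS stretch is chr7:97872444-97872501 (minus strand), and its motif is read on the printed strand. The CHAC1 stretch is chr15:40953237-40953294 (plus strand), the AARS1 stretch chr16:70289661-70289718 (minus strand) and the CARS1 stretch chr11:3057393-3057450 (minus strand), with the motif read on the opposite strand in all 3. Among other genes of the pathway, the letters stood in 7 of 11 tRNA synthetase and tRNA export genes with a window and in 4 of 8 amino acid transporters (SLC3A2, SLC7A1, SLC1A4 and SLC1A5). They stood in 3 of 6 partner transcription factors (ATF3, CEBPG and JDP2) and in 0 of 7 amino acid synthesis genes. These are letter matches in short windows and show no binding.

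Depth ran from 15869619 to 27029836 counts in HEL and from about 17183000 to 26308000 reads in the degron set, as recovered from the FPKM steps. That of the LDB1 set is unknown. TAL1 RNA fell by 1.38 ± 0.08 (log2, standard error) with siPool 1 and by 1.31 ± 0.08 with siPool 2 (edgeR adjusted p = 5.41e-06 and 1.03e-05). LDB1 stood at 467.9 TPM with the control shRNA and at 62.4 and 69.6 TPM with the LDB1 shRNAs. LMO2 RNA was 31.2 to 46.6 FPKM in parental cells, 212.1 to 443.2 FPKM in the LMO2 control line and 128 to 271.1 FPKM in the degron lines over the 3 days. It does not check a degron, which acts on protein. LDB1 RNA changed by -0.89 ± 0.17 on day 4 in the degron lines relative to the control lines (limma adjusted p = 0.002). Erythroid markers were present in both cell lines, CD3E reached at most 0.417 FPKM in K562, and MS4A1 was at 0 in the degron set and in HEL. In bulk RNA, fewer cells of a type and less RNA per cell cannot be told apart. Several of the 10 genes split by bio rep. In the degron set, ATF4, ASNS and NUPR1 were higher in bio rep 1 than in bio rep 2 in 12 of 12 line and day groups. For ASNS and DDIT4 the ratio was largest in parental cells on day 0, at 12.8 and 8.57. In HEL, bio rep 1 of the non-targeting and siPool 1 groups stood far below the other libraries in DDIT4, CHAC1, ASNS and SESN2. Bio rep 1 of siPool 2 was also below bio rep 2 and 3 of its group in these genes, by a smaller factor. Its DDIT4 was at 40.1 CPM, with 106 and 128 CPM in bio rep 2 and 3. What the bio reps differ in was not tested. Fits with the bio rep as a block, or without the HEL bio rep 1 libraries, are given where they change a call. Those with the block in HEL stand in the closing section.

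In the degron set, levels per gene length (FPKM, which corrects fragments for a gene's length and a library's depth) spanned several orders of magnitude. Over the 24 libraries, ATF4 averaged 112 ± 34.7 FPKM (SD) and DDIT4 80.5 ± 55 FPKM, a pair whose spreads overlapped. Next came TRIB3 at 25.4 ± 9.78 and SESN2 at 20.7 ± 6.76 FPKM, then ATF5 at 8.95 ± 3.18 and DDIT3 at 7.61 ± 2.57 FPKM. Within each of these pairs the spreads overlapped too. CHAC1 averaged 1.91 ± 2.21 FPKM and ASNS 0.961 ± 1.19 FPKM, so both varied more than their own mean. NUPR1 averaged 0.525 ± 0.705 FPKM. VLDLR never passed 0.0697 FPKM, which is 0 to 13 reads, and was not tested.

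**Figure D1:**
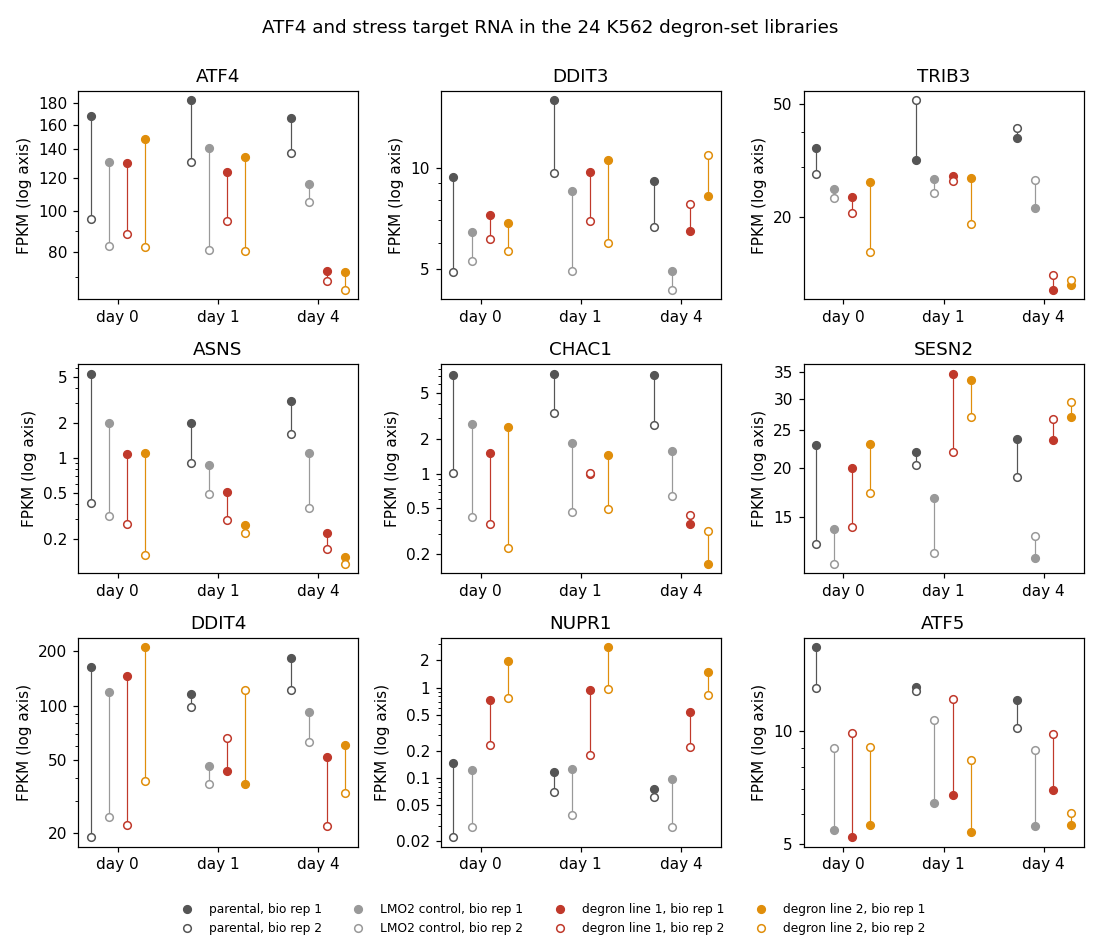
FPKM (log axis) of 9 genes in each of the 24 K562 degron-set libraries, by day. Filled points are bio rep 1 and open points bio rep 2, joined by a line for each cell line. On day 4, ATF4, TRIB3, ASNS, CHAC1 and DDIT4 lay lower in all 4 degron libraries than in any control-line library, and NUPR1 lay higher on each day.

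The scarcity of ASNS in these K562 libraries stood apart from the other K562 set. As a share of the ATF4 level in the same library, both per length, ASNS was 0.179% to 3.15% in the 24 degron-set libraries and 27% to 30.9% in the 3 LDB1-set libraries. DDIT3 stood at 4.13% to 16.8% of ATF4 in the first and at 20% to 25.4% in the second. TRIB3 overlapped between the sets, at 15.4% to 39.4% and 17.5% to 28%. The tables were normalized separately, and the sources used here do not give the annotation behind each. ATF4 and ASNS each have 4 named pseudogenes in GENCODE 29. DDIT3, ATF5, DDIT4 and VLDLR overlap genes on the opposite strand, and ASNS overlaps a pseudogene there. On the same strand, ASNS overlaps the transcript AC079781.5, DDIT3 overlaps the protein-coding entry AC022506.1 and a microRNA, and ATF5 overlaps a microRNA. Counts of these 6 are uncertain where reads were shared between copies, strands or overlapping genes. The part of this in the ASNS and DDIT3 shares was not tested.

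The control lines themselves differed. In 6 of 6 pairs of the same day and bio rep, parental cells held more ATF4, TRIB3, ASNS, CHAC1, SESN2 and ATF5 RNA than the LMO2 control line. The median ratio was 4.02 for CHAC1, 2.49 for ASNS, 1.75 for ATF5 and 1.3 for ATF4. This difference was not tested.

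Before any dTAGv1, the degron lines and control lines were compared on day 0. NUPR1 was the 1 of 9 tested genes past the threshold, where 16.8% of all 15348 genes passed (limma adjusted p under 0.05). It stood at 0.732 and 0.233 FPKM in degron line 1 and at 1.99 and 0.772 FPKM in degron line 2 (bio rep 1 and 2). Parental cells had 0.146 and 0.0223 FPKM and the LMO2 control line 0.123 and 0.0289 FPKM. All 4 degron libraries were thus above all 4 others, which held on days 1 and 4 as well, where degron line 2 reached 2.78 FPKM. In reads, NUPR1 had 24 to 351 in the degron libraries and 3 to 19 in those of the control lines. The fitted difference was 0.77 ± 0.22 (log2 of FPKM + 1, adjusted p = 0.0272), a scale that understates low genes, and with a pseudocount of 0.1 it was 2.30 ± 0.52. NUPR1 met the minimum of 1 FPKM in 2 libraries only through degron line 2, so it had to differ, and its call is no support beyond these values. The call was also lost against parental cells alone (adjusted p = 0.0811), against the LMO2 control line alone (0.0914), with no minimum level (0.0596), and without any 1 of 5 of the 8 day 0 libraries.

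The other 8 tested genes were not called on day 0. CHAC1 differed by -0.63 ± 0.47, ASNS by -0.61 ± 0.39 and ATF5 by -0.46 ± 0.25 (adjusted p = 0.423, 0.33 and 0.244). ASNS was called at -1.15 without parental bio rep 2 (adjusted p = 0.0223), and TRIB3, at -0.38 ± 0.17 (adjusted p = 0.168) in the fit of all libraries, at -0.57 without degron line 2 bio rep 1 (adjusted p = 0.0373). ATF5 in the degron lines, at 5.20 to 9.89 FPKM, overlapped the LMO2 control line at 5.45 and 9 FPKM, while parental cells had 16.7 and 13 FPKM. With the bio rep as a block, NUPR1 was again the only one of the 9 called (adjusted p = 0.002), where 30.8% of all genes passed. On FPKM alone, NUPR1 was also the only one whose 4 degron libraries did not overlap the 4 others, as in 17.3% of all tested genes. CD3D, listed as a T cell marker, carried nearly all of its list's sum, which was 48.7 to 103 FPKM in the degron lines and 7.14 to 19.2 FPKM in the control lines. Its 2 companions CD3E and CD2 were near 0 throughout, and the part of such line differences in the NUPR1 values was not tested.

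dTAGv1 and time without a degron moved none of the 9 genes past the threshold on day 1 or day 4 (limma, 0 of 9 at an unadjusted p under 0.05 on either day). No gene at all was called in these comparisons, 0% of 15348 on each day. DDIT3 changed most on day 1, by 0.45 ± 0.22 (adjusted p = 1), with parental cells going from 9.37 and 4.93 FPKM to 15.8 and 9.65 FPKM. DDIT4 changed most on day 4, by 0.94 ± 0.75 (adjusted p = 1). Bio rep 2 went from 19.0 to 121 FPKM in parental cells and from 24.4 to 63.2 FPKM in the LMO2 control line. Bio rep 1 went from 163 to 182 FPKM and from 118 to 92.2 FPKM. Without 1 library the DDIT4 value ran from 0.18 to 1.7.

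On day 1 of dTAGv1, the degron-specific change was the change in the degron lines minus that in the control lines. It passed the threshold for 0 of the 9 genes (0 at an unadjusted p under 0.05), where 0.0782% of all genes passed, and for 0 of 9 with the block. ATF4 changed by -0.20 ± 0.36, TRIB3 by 0.02 ± 0.25 and DDIT4 by -0.52 ± 1.06 (adjusted p = 0.996, 0.998 and 0.997). DDIT4 moved in opposite directions by bio rep: degron line 2 went from 208 to 37.2 FPKM in bio rep 1 and from 38.7 to 121 FPKM in bio rep 2. SESN2, the mTORC1 inhibitor that senses leucine, had the largest positive value, 0.41 ± 0.27 (adjusted p = 0.891). It stood at 34.7 and 22 FPKM in degron line 1 and 33.4 and 26.9 FPKM in degron line 2, above the 12.1 to 21.9 FPKM of the control lines. SESN2 and NUPR1 were the 2 of 9 genes whose day 1 libraries did not overlap, as in 29.4% of all tested genes. NUPR1 met the minimum level only through degron line 2 and did not overlap on day 0 either, so it adds no support to this count.

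By day 4, TRIB3 fell and ATF4 stood lower in every degron library. TRIB3 had 11.1 and 12.5 FPKM in degron line 1 and 11.6 and 12 FPKM in degron line 2. Parental cells had 38.0 and 41.3 FPKM and the LMO2 control line 21.5 and 27.0 FPKM. The 4 degron libraries lay close together and below every control-line library, whereas on day 0 and day 1 the groups overlapped. The degron-specific change of TRIB3 was -0.95 ± 0.25 (adjusted p = 0.0142), -1.03 in bio rep 1 and -0.87 in bio rep 2. TRIB3 was the 1 of 9 genes called, where 19.8% of all 15348 genes passed, so calls were no more frequent among the 9 than among all genes. It was called in 16 of 16 fits that each left out 1 library. The call was lost with the LMO2 control line as the only control (-0.78 ± 0.30, adjusted p = 0.115) and with degron line 2 alone (-0.88 ± 0.30, adjusted p = 0.0661).

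ATF4 had 72.0 and 68.4 FPKM in degron line 1 and 71.7 and 65.1 FPKM in degron line 2 on day 4. Parental cells had 166 and 137 FPKM and the LMO2 control line 116 and 105 FPKM, so the groups did not overlap. On day 0 the degron libraries had spanned 82.4 to 148 FPKM and the others 82.9 to 168 FPKM. The degron-specific change was -0.81 ± 0.36 (adjusted p = 0.13), which did not pass, at -0.85 in bio rep 1 and -0.78 in bio rep 2. With the bio rep as a block the same change had a smaller error, -0.81 ± 0.18, and ATF4 was called (adjusted p = 0.00342). TRIB3 was called there too (adjusted p = 0.00776), so 2 of 9 passed where 35.6% of all genes did.

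**Figure D2:**
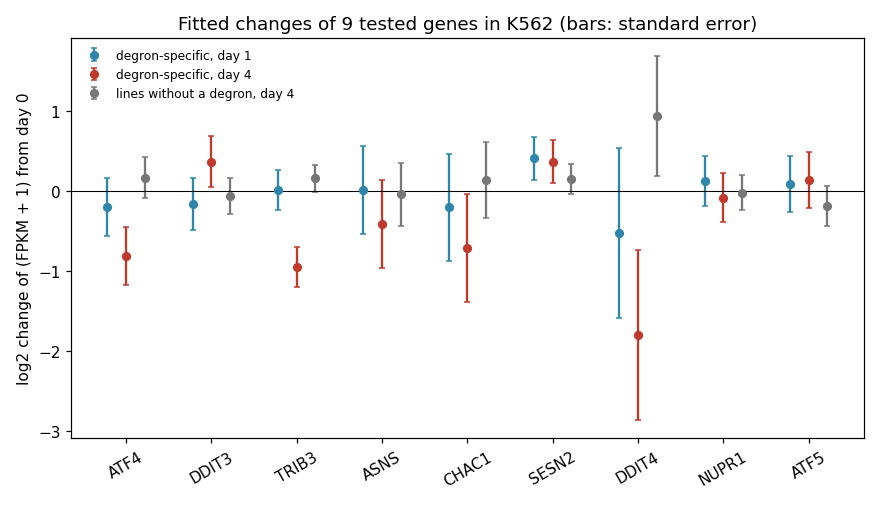
Fitted log2 change of (FPKM + 1) from day 0 for the 9 genes tested in K562, with standard errors. Blue and red points are degron-specific changes on days 1 and 4, and grey points the mean change of the control lines on day 4. The day 4 value of TRIB3, -0.95 ± 0.25, was the one that passed the threshold, and DDIT4 had the widest errors.

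The amino acid and redox targets were also lower in every degron library than in every control-line library on day 4, without passing the test. ASNS stood at 0.227 and 0.167 FPKM in degron line 1 and 0.140 and 0.124 FPKM in degron line 2. Parental cells had 3.12 and 1.60 FPKM and the LMO2 control line 1.11 and 0.370 FPKM. The degron-specific change in log2(FPKM + 1), a scale that understates low genes such as ASNS and CHAC1, was -0.41 ± 0.55 (adjusted p = 0.657). Without parental day 0 bio rep 2 this ASNS value turned to 0.13. CHAC1 was at 0.369 and 0.440 FPKM in degron line 1 and 0.167 and 0.318 FPKM in degron line 2, against 0.643 to 7.16 FPKM in the control lines. Its change was -0.71 ± 0.67 (adjusted p = 0.502), at -0.98 in bio rep 1 and -0.44 in bio rep 2. In bio rep 2, CHAC1 itself changed by 0.08 and 0.10 from day 0 in the degron lines. Without parental day 0 bio rep 1 the value was -1.21, and without parental day 0 bio rep 2 it was -0.21.

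Of the mTORC1 inhibitors, DDIT4 had 21.8 to 60.8 FPKM in the 4 degron libraries and 63.2 to 182 FPKM in the others on day 4. Its change had the largest size of the 9, -1.80 ± 1.06 (adjusted p = 0.259), at -1.52 in bio rep 1 and -2.09 in bio rep 2. In bio rep 2 DDIT4 changed by -0.02 and -0.21 in the degron lines and by 2.61 in parental cells and 1.34 in the LMO2 control line. Without parental day 0 bio rep 1 the value was -2.56, and without parental day 0 bio rep 2 it was -1.05. SESN2 went the other way, at 23.6 to 29.4 FPKM in the degron libraries and 11.8 to 23.7 FPKM in the others, with a change of 0.37 ± 0.27 (adjusted p = 0.364). DDIT3 had 6.51 to 10.9 FPKM in the degron libraries and 4.35 to 9.14 FPKM in the others, a change of 0.37 ± 0.32 (adjusted p = 0.453). ATF5 and NUPR1 changed by 0.14 ± 0.35 and -0.08 ± 0.31 (adjusted p = 0.816 and 0.884).

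In all, 5 of the 9 genes (ATF4, TRIB3, ASNS, CHAC1 and DDIT4) were lower in every degron library on day 4 and NUPR1 was higher in every one. Such lack of overlap held for 48.4% of all 15348 tested genes, with 3100 genes lower in the degron libraries and 4334 higher. NUPR1, which met the minimum level only through degron line 2, did not overlap on day 0 either and adds no support. The median degron-specific change of the 9 was -0.41, which is the value of the low gene ASNS on the FPKM + 1 scale, and that of all genes 0.06. The degron lines did not differ from each other in their day 4 change for any of the 9 (limma, 0 called, 0 at an unadjusted p under 0.05, where 0.013% of all genes were called). The values of that difference ran from -0.45 ± 0.45 for DDIT3 to 0.43 ± 0.50 for ATF5. Erythroid markers moved with day 4 too: the sum of all 8 was 283 to 303 FPKM in the degron libraries and 724 to 1150 FPKM in those of the control lines. Their part in the values of ATF4 and TRIB3 was not tested.

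Further genes of the pathway were counted in 7 lists with 75 genes, and the counts of those that supply and charge amino acids follow. On day 4, 8.18% of all 15348 genes were called lower and 11.6% higher. Of 12 tested amino acid and one-carbon synthesis genes, 5 fell and 1 rose (PSPH, 0.57 ± 0.18), with a median change of -0.85. SHMT2, a mitochondrial enzyme that splits serine for one-carbon units, changed by -1.09 ± 0.15 (adjusted p = 0.000241). CBS, the first enzyme of transsulfuration, changed by -1.07 ± 0.16, and PYCR1, which makes proline, by -1.40 ± 0.22. Of 9 amino acid transporters 3 fell, with a median of -0.71: SLC7A1 by -1.42 ± 0.23, SLC7A5 by -1.42 ± 0.25 and SLC1A5 by -0.81 ± 0.16, carriers of arginine, leucine and glutamine. Of 14 tRNA synthetase and tRNA export genes 4 fell, with a median of -0.54, among them IARS1 by -0.83 ± 0.15 and GARS1 by -0.86 ± 0.28. With the bio rep as a block these counts became 7 lower and 1 higher, 6 lower and 9 lower, where 15.6% of all genes were lower and 20.1% higher. The lists were chosen with earlier results of these data known, so these counts are no independent support. Whether the lists differ from other genes was not tested.

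None of 12 eIF2 kinase and phosphatase regulators was called (1 at an unadjusted p under 0.05, median -0.15), though 3 were lower and 1 higher with the block. None of 6 partner transcription factors was called either (0 at an unadjusted p under 0.05, median -0.04). Of 13 ER chaperone genes and genes of the XBP1 and ATF6 arms, 2 rose, SEL1L by 0.49 ± 0.11 and DNAJB9 by 0.90 ± 0.29, with a median of 0.20. With the block 4 rose, EDEM1 and ATF6 being added. Of 8 tested secreted and growth-restraint targets, TRIB2 rose by 0.70 ± 0.11 and SESN1 by 0.70 ± 0.12, relatives of TRIB3 and SESN2. EIF4EBP1, the translation repressor, fell by 1.13 ± 0.18. With the block SESN3 rose too, by 1.3 ± 0.38. So TRIB2 and TRIB3 had opposite signs in the same fit. On day 1, no gene of the lists was called (limma, 7 at an unadjusted p under 0.05, where 1069 of all 15348 genes were). With the block EIF2B3 and LARS1 were called, both lower, with 167 of all 15348 genes called.

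**Figure D3:**
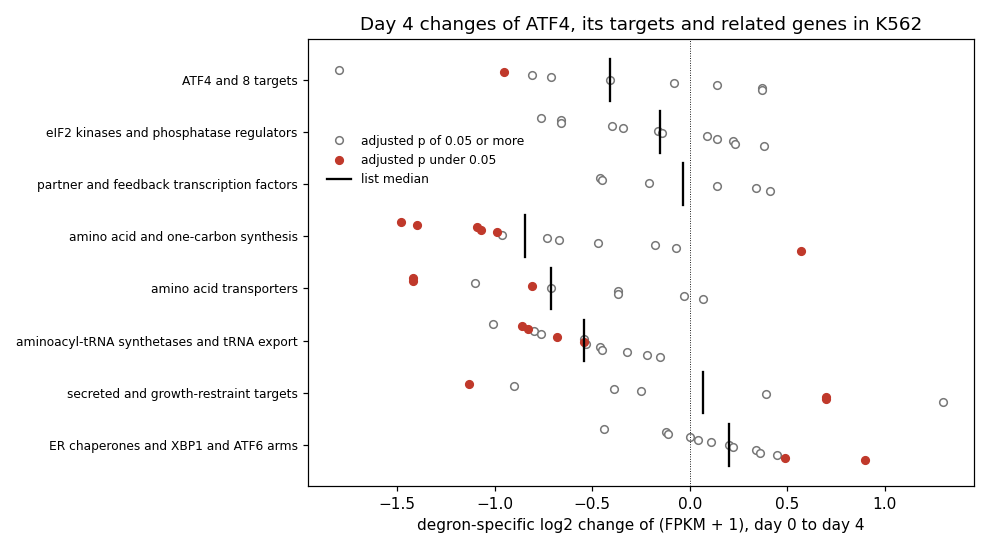
Degron-specific log2 change of (FPKM + 1) from day 0 to day 4 for each tested gene, by list, with 1 point per gene and the list median as a bar. Filled points passed an adjusted p of 0.05 (limma). The lists for amino acid synthesis, transport and tRNA charging have medians of -0.85, -0.71 and -0.54, the ER list 0.20.

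Some of these genes were already lower in the degron lines on day 0, with day 0 libraries that the day 4 change shares. Of all genes, 6.14% were lower on day 0 and 10.6% higher, and 12.9% were lower with the block. CBS differed by -0.67 ± 0.12 and PYCR1 by -0.77 ± 0.15 then, and 4 of 9 transporters were lower, SLC7A5 by -0.87 ± 0.18 among them. The counts of lower genes were 3 of 12 for synthesis, 4 of 9 for transport and 2 of 14 for tRNA charging, and 5 in each of the 3 lists with the block. STC2, a secreted glycoprotein induced by ER stress, differed by -1.3 ± 0.17. GDF15, a secreted stress cytokine, was higher by 1.27 ± 0.37, TRIB2 by 0.83 ± 0.08 and TRIB1 by 0.54 ± 0.15.

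Across the 24 libraries, which share bio reps, lines and depth, the patterns of the genes were compared as correlations of log2(FPKM + 1), without a test. ATF4, ASNS and CHAC1 formed a close group: Pearson's r was 0.91 for ATF4 with CHAC1, 0.92 for ASNS with CHAC1 and 0.82 for ATF4 with ASNS. TRIB3 followed ATF4 at 0.81 and DDIT4 did so at 0.66. SESN2 did not follow ATF4, at 0.04, and stood nearer to DDIT3 at 0.70 and NUPR1 at 0.66. DDIT3 and ATF4 had 0.41, and ATF5 and NUPR1 had -0.61. Among the genes with a mean of at least 5 FPKM, the most alike to ATF4 were AARS1 at 0.952, ARG2 at 0.914 and EIF4B at 0.909. AARS1 charges alanine tRNA. It was also among the 3 most alike to ASNS (0.925, after MCEE at 0.949 and CARS1 at 0.928) and to CHAC1 (0.947, ahead of CARS1 at 0.938 and EIF4B at 0.927). TRIB3 was most like SHMT2 at 0.928, then CDR2 and AC012653.2. DDIT3 was most like HERPUD1 at 0.821, an ER degradation gene, then ERP29 and EIF1. DDIT4 was most like VEGFA at 0.781, then CEP44 and CEP57, and SESN2 most like AHCYL1 at 0.899, then DHRS7 and TRPC4AP. NUPR1 was most like CCNY at 0.935, then ERP44 and FAM13A, and ATF5 most like ATF1 at 0.807, then MMADHC and GTSF1.

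In HEL, where TAL1 was knocked down, values are counts, given here relative to library size (CPM), which compare one gene between libraries and not genes with each other. NUPR1 had 0 to 3 counts in every library and was not tested. The other 9 passed the filter on low counts, VLDLR with 39 to 97 counts per library. ATF4 had 444, 604 and 606 CPM in bio rep 1, 2 and 3 of the non-targeting group, 421, 559 and 595 CPM with siPool 1 and 556, 637 and 661 CPM with siPool 2. The groups overlapped, and bio rep 1 was the lowest in each.

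Loss of TAL1 by siPool 1 called none of the 9 genes (edgeR, 0 at an unadjusted p under 0.05, DESeq2 0), where 4.22% of 16688 genes were called. DDIT4 had the largest value. It stood at 13.7, 107 and 117 CPM in the non-targeting group and at 10.4, 57.4 and 56.1 CPM with siPool 1, with bio rep 1 low in both. Its change was -0.94 ± 0.95 (adjusted p = 0.684). Without the 3 bio rep 1 libraries, an alternative chosen after seeing these values, the change was of like size and its error smaller, -0.96 ± 0.08 (adjusted p = 8.08e-11). DDIT4 was then the 1 of 9 genes called, with 2705 of 16857 genes called in all. The remaining 8 ran from -0.22 ± 0.82 for CHAC1 to 0.16 ± 0.15 for ATF5 in the fit of all 9 libraries.

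With siPool 2 none of the 9 was called either (edgeR, 1 at an unadjusted p under 0.05, DESeq2 0), where 1.05% of all genes were. CHAC1 had 28.1, 54.6 and 72.3 CPM with siPool 2 and 7.10, 46.5 and 45.3 CPM in the non-targeting group, a change of 0.62 ± 0.82 (adjusted p = 0.85). SESN2 had 57.4, 74.5 and 90.0 CPM with siPool 2 and 23.5, 59.9 and 64.2 CPM without, a change of 0.57 ± 0.44 (adjusted p = 0.697). ATF5 had 39.6, 40.2 and 43.8 CPM with siPool 2 and 38.7, 28.9 and 28.6 CPM without. Its change was 0.34 ± 0.15 (adjusted p = 0.381). ATF5 differed from the other genes in that bio rep 1 was the highest of the non-targeting libraries. Without the bio rep 1 libraries these 3 genes were called, with 1652 of 16857 genes called in all. CHAC1 was at 0.45 ± 0.11, SESN2 at 0.39 ± 0.10 and ATF5 at 0.53 ± 0.10 (edgeR adjusted p = 0.0141, 0.00824 and 0.000716). DDIT4 was then at 0.04 ± 0.08 (edgeR adjusted p = 0.807). The call made for siPool 2 with the bio rep as a block is given in the closing section.

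**Figure D4:**
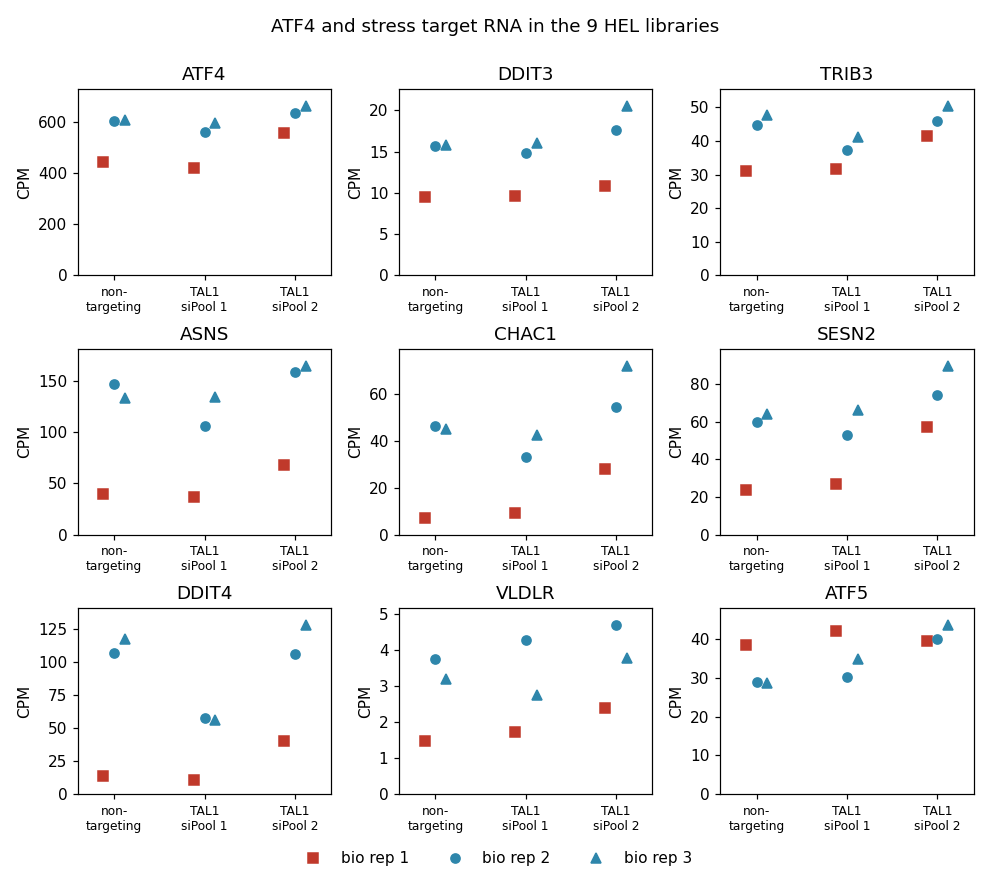
CPM of 9 genes in the 9 HEL libraries, by siRNA pool, each axis starting at 0. Red squares are bio rep 1 and blue symbols bio rep 2 and 3. DDIT4 shows the low bio rep 1 values of 13.7 and 10.4 CPM, and in bio rep 2 and 3 lower values with siPool 1 than with either other pool.

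The 2 TAL1 pools were also set against each other, since both lowered TAL1 to a like level (siPool 1 minus siPool 2 in TAL1 was -0.07 ± 0.08, adjusted p = 0.746). None of the 9 genes was called (edgeR, 0 at an unadjusted p under 0.05, DESeq2 0), where 2.76% of all genes were. All 9 values were below 0, from -0.18 ± 0.15 for ATF5 to -1.12 ± 0.95 for DDIT4. Their median was -0.30 and that of all genes -0.01. The 9 values come from the same libraries, so their shared sign is not 9 separate results. CHAC1 was at -0.84 ± 0.82, SESN2 at -0.58 ± 0.44, ASNS at -0.47 ± 0.67, TRIB3 at -0.30 ± 0.15 and ATF4 at -0.21 ± 0.13. Without the bio rep 1 libraries 5 of the 9 were called lower with siPool 1, with 2591 of 16857 genes called in either direction. They were DDIT4, CHAC1, SESN2, ASNS and ATF5, at -1.01 ± 0.08, -0.71 ± 0.12, -0.42 ± 0.10, -0.40 ± 0.08 and -0.32 ± 0.10. Calls between the pools with the bio rep as a block are given in the closing section. The megakaryocyte markers listed in HEL summed to 833 to 1010 CPM in bio rep 1 and to 1140 to 1320 CPM in the other libraries, and their part was not tested.

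Few other genes of the pathway were called in HEL, where 4.22% of all 16688 genes passed with siPool 1 and 1.05% with siPool 2. They were 1 of 9 amino acid transporters and 2 of 7 tested secreted and growth-restraint targets with siPool 1, and 1 of these 7 with siPool 2. SLC7A1 changed by -0.61 ± 0.10 with siPool 1 (edgeR adjusted p = 0.00477) and was lower with that pool than with siPool 2 (-0.71 ± 0.10). TRIB2 rose with both pools, by 0.90 ± 0.09 and 0.61 ± 0.09 (adjusted p = 0.000122 and 0.00551), and SESN3 rose with siPool 1 by 0.76 ± 0.14. No other gene of the 7 lists was called with either pool in this fit. More were called with the bio rep as a block, as given in the closing section.

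In the LDB1 set there is 1 library per group, so differences have no replicate check and no test was made. A gene was counted when TPM + 1 changed at least 2-fold, one way in both shRNA libraries, and reached 5 TPM. NUPR1 and SESN2 were counted, both higher, 2 of 9 genes (22.2%), where 11.2% of 12445 genes were counted in either direction and 8.94% were higher. NUPR1 stood at 2.87 TPM with the control shRNA and at 75.8 and 77.4 TPM with LDB1 shRNA 1 and 2, which is 26.4 and 26.9 times as much. SESN2 went from 82.7 to 206.4 and 188.1 TPM, 2.50 and 2.28 times as much. NUPR1 reached 5 TPM only in the LDB1 shRNA libraries, so it had to differ, and its count is no support beyond these values.

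The remaining 7 changed less. TRIB3 had 121.9, 209.3 and 250.3 TPM with the control shRNA and LDB1 shRNA 1 and 2, ratios of 1.72 and 2.05. CHAC1 had 18.2, 29.4 and 33.2 TPM, and DDIT3 139.9, 181.8 and 242.0 TPM. ATF4 had 697.6, 748.6 and 950.8 TPM, ratios of 1.07 and 1.36, and DDIT4 965.0, 1003.5 and 1408.3 TPM. ASNS had 215.3, 210.6 and 256.9 TPM, so the 2 shRNAs lay on either side of the control. ATF5 was the one gene lower with both, at 280.7, 149.2 and 191.1 TPM. LDB1 shRNA 2 was above shRNA 1 in 8 of the 9 genes, SESN2 being the exception. The median log2 ratio of the 9 genes was 0.38 with shRNA 1 and 0.79 with shRNA 2, and that of all genes with at least 5 TPM 0.18 and 0.13. Relative to those medians, ATF4 and DDIT4 were lower with shRNA 1 and higher with shRNA 2.

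**Figure D5:**
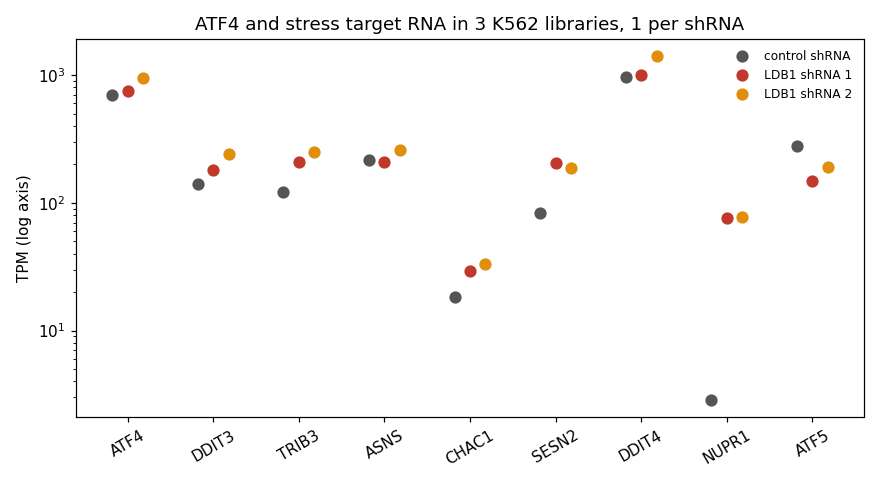
TPM (log axis) of 9 genes in the 3 K562 libraries of the LDB1 set, 1 library per point. NUPR1 lies at 2.87 TPM with the control shRNA and at 75.8 and 77.4 TPM with the LDB1 shRNAs, while ATF4 and ASNS differ little.

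No gene of the lists for synthesis, transport, tRNA charging, eIF2 control or partner factors was counted. TRIB1 was counted, from 10.3 to 29.6 and 33.2 TPM, as was EDEM1, an ER degradation gene, from 22.2 to 49.0 and 53.7 TPM. LMO2 itself stood at 130.9 TPM with the control shRNA and at 44.2 and 46.2 TPM with the LDB1 shRNAs. The 8 erythroid markers summed to 9220, 2360 and 3200 TPM, and CD3D, the 1 listed T cell marker in this table, stood at 27.5, 174 and 185 TPM. Their part in the NUPR1 and SESN2 values was not tested.

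The values of TRIB3, ATF4 and SESN2 are set side by side for the 3 factors lost. Cell line, method and scale differ between the tables, and no test joins them. TRIB3 changed by -0.95 ± 0.25 (log2) by day 4 of dTAGv1 in K562, by -0.16 ± 0.15 and 0.14 ± 0.15 with the TAL1 pools in HEL, and by log2 ratios of 0.77 and 1.03 with the LDB1 shRNAs in K562. ATF4 changed by -0.81 ± 0.36, by -0.07 ± 0.13 and 0.14 ± 0.13, and by log2 ratios of 0.10 and 0.45. SESN2 changed by 0.37 ± 0.27, by -0.01 ± 0.44 and 0.57 ± 0.44, and by log2 ratios of 1.31 and 1.18.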

How the data were processed

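PolyA RNA of K562 and HEL cells was sequenced. FastQC, STAR, featureCounts and the build hg19 are named per the submitters' processing notes, whereas versions, annotation and strand setting are not given in the sources used here. Deposited by the authors were FPKM per gene for the degron set, scaled by gene length and depth, raw counts per gene for HEL, and TPM for a chosen set of genes in the LDB1 set. K562 reads behind low FPKM were recovered from the FPKM steps with GENCODE exon lengths and are approximate, since about 81% of low values came out whole within 0.05 reads.

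The degron set was fitted with limma 3.58.1 (R 4.3.3) on log2(FPKM + 1) with 12 group means, for the 15348 genes with at least 1 FPKM in 2 libraries. HEL was fitted with edgeR 4.0.16 quasi-likelihood and TMM on 16688 genes, with DESeq2 1.42.0 as an alternative. Benjamini-Hochberg adjustment ran over all genes tested, and a call is an adjusted p under 0.05. Standard errors follow ±, unless SD is given. Code was tested on simulated data. Bio rep numbers paired the K562 libraries: deviations from group means correlated at 0.119 to 0.662 over 66 same-number pairs, so blocked values are given where they change a call.

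The members and gene lists were chosen with earlier results of these data known. From each list, up to 4 called genes were named per comparison, not always those of smallest adjusted p. Likeness took the 3 genes of highest correlation with a mean of at least 5 FPKM. Promoter windows are RefSeq's, GRCh38.p14, a different build from that of the files, and were matched by symbol. Alternatives varied the pseudocount, filter, scaling, controls, degron line, block and libraries.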

Additional observations from a re-analysis of the deposited data

How the results depend on the processing

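Over all alternatives, 625 single values stayed, 20 moved, 16 became called, 10 lost a call and 44 turned sign, while 126 counts stayed and 14 moved. A tested value stayed if it kept its direction and side of the threshold. An LDB1 log2 ratio has no test and stayed if it changed by less than 0.1. Otherwise it moved, and a turn of sign was counted only for ratios of at least 1 in size. On day 4 the count of called genes was 1 and became 0 with the LMO2 control line as the only control, 0 with degron line 2 alone and 2 with the replicate block. On day 0 it was 1 and became 0 with parental cells only, 0 with the LMO2 control line only and 0 with no filter, and leaving out single libraries gave 0 to 1. In HEL, leaving out the bio rep 1 libraries, chosen after seeing the data, took the count from 0 to 1 for siPool 1, 3 for siPool 2 and 5 between the pools. HEL numbers did not meet the bar for pairing, a correlation over 0.1 in every pair: 9 same-number correlations ran from 0.0869 to 0.363 (median 0.123) and 18 others from -0.264 to 0.207 (median -0.16). A library correlated best with its own number in 10 of 18 comparisons with another group. With the replicate block the count there became 1 for siPool 2 (ATF5) and 3 between the pools (ATF4, ASNS and TRIB3). Genes of the 7 lists were called too, given in the order eIF2 control, partner factors, synthesis, transport, tRNA charging, secreted targets and ER. Higher counts were 1, 1, 1, 1, 0, 3 and 3 for siPool 1 and 0, 1, 5, 3, 1, 1 and 1 for siPool 2. Lower counts were 2, 1, 0, 2, 2, 2 and 0, and 2, 0, 1, 0, 2, 1 and 2. Of all 16688 genes, 1417 were higher and 1471 lower with siPool 1, and 829 and 865 with siPool 2. Over all genes, calls with siPool 1, siPool 2 and between the pools were 704, 176 and 461, and 2888, 1694 and 2431 with the block, 2705, 1652 and 2591 without bio rep 1, 1188, 452 and 909 with DESeq2, and 1084, 418 and 758 with no filter. In K562, day 4 calls were 3040 and became 5471 with the block, 1763 with parental cells only, 1675 with the LMO2 control line only and 1398 with degron line 1 alone. Day 0 calls were 2576 and became 4729 with the block and 1626 with the LMO2 control line only. Day 1 calls were 12, and 0, 1, 0, 5, 40 and 167 with parental cells only, the LMO2 control line only, degron line 1, degron line 2, no filter and the block. With no filter the control lines had 23 calls on either day. Between degron lines 2 calls became 59 with no filter, 4 with the block and 1 with a pseudocount of 0.1. Signs turned in values that were not called. On day 1, TRIB3 was -0.11 with parental cells only, -0.05 with degron line 2 alone and -0.02 with trimmed-mean rescaling, and -0.18 to 0.21 leaving out single libraries. DDIT4 was 0.11 with the LMO2 control line only and -1.28 to 0.23 leaving out single libraries, and ATF4 was -0.41 to 0.01. On day 4, ASNS ran from -0.94 to 0.13 leaving out single libraries, ATF5 was -0.05 with the LMO2 control line only and -0.07 with degron line 2 alone, and ran from -0.06 to 0.35, and NUPR1 from -0.27 to 0.11. On day 0 ATF5 was 0.03 with the LMO2 control line only. With siPool 1, SESN2 was 0.0 with DESeq2 and with RLE factors and 0.01 with no filter and with the block. Leaving out single libraries, siPool 1 gave -0.34 to 0.28 for SESN2, -0.7 to 0.2 for CHAC1 and -0.2 to 0.06 for ATF4, and siPool 2 gave -0.32 to 0.57 for DDIT4 and -0.03 to 0.25 for TRIB3. The cause was not tested. The block changed no other call of the 10 genes. ASNS, CHAC1 and NUPR1 rest on few reads in K562 (as few as 13, 7 and 3), and the LDB1 set has no known depth.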
